A study of Mus musculus with 12 samples.

Results

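The collagen genes described here are the 44 genes, of 54100 in the deposited count table, that are annotated as protein coding and carry a symbol of the form Col, a number, the letter a and a number. They were measured in 12 RNA libraries from fibro-adipogenic progenitors (FAPs), the Pdgfra-positive mesenchymal cells that lie between muscle fibres, sorted from mouse plantaris muscle. The libraries form 4 groups of 3: cdKO overload, control overload, cdKO sham and control sham. All mice carried Pdgfra-CreERT2, a tamoxifen-dependent Cre recombinase driven by the Pdgfra promoter, and this transgene alone defined the controls. In cdKO mice both Yap1 and Wwtr1, the gene of Taz, were floxed in addition; their products are the transcriptional co-activators at the end of the Hippo pathway. Recombination is limited to cells that use that promoter. Muscles were either overloaded, which makes the plantaris bear extra load, or sham-operated. Each library came from a tube of 1000 sorted cells. Whether each library stems from its own animal is not stated in the labels, and p-values then reflect the spread among libraries alone, possibly a technical one. The sources used here do not give age, sex, drug dosing or the time after surgery.

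Collagens are trimeric proteins wound from chains that are each encoded by a gene of their own, and they form the scaffold of the extracellular matrix. Fibrillar collagens (types I, III and V here) build the cross-striated fibrils of connective tissue, FACIT collagens coat those fibrils, and beaded collagens (type VI) form microfilaments around cells. Basement membrane collagens (type IV) make the sheet around muscle fibres and vessels, multiplexins sit at its outer edge, short chain collagens form hexagonal networks, and transmembrane collagens stay in the cell surface. In skeletal muscle, FAPs are known as a main source of the interstitial collagens.

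Library totals ran from 336437 to 1564581 counts, so that 3 counts correspond to 1.95 to 9.72 CPM (counts-per-million, scaled by TMM library factors). CPM here come from tags of the 3′ end and are not divided by gene length. Levels are compared between libraries and not between genes. Replicates differed by more than counting noise (chi-square per degree of freedom 4.20 to 23.5). Wwtr1 averaged 20.2 ± 2.13 CPM in cdKO overload against 141 ± 28.4 in control overload, and 34.8 ± 6.97 in cdKO sham against 119 ± 9.95 in control sham (SD, n = 3), with no overlap between genotypes. It was lower in cdKO under both loads (adjusted p = 1.83e-06 overloaded and 0.00733 sham). Yap1 averaged 32 ± 9.15 CPM in cdKO overload against 59.5 ± 27.9 in control overload, and 64.5 ± 7.71 in cdKO sham against 97.9 ± 8.93 in control sham. The Yap1 ranges overlapped in overloaded muscle (22.1 to 40.2 CPM in cdKO against 39.7 to 91.3 CPM in control) and not in sham muscle, and the difference passed under neither load (adjusted p = 0.586 overloaded and 0.999 sham). Pdgfra, the gene behind the sort, was counted in every library, from 259 to 899.6 CPM. Summed over 7 leukocyte markers the libraries held 7.14 to 65.5 CPM, and over 6 myofibre markers 11.7 to 139 CPM. Control overload replicate 1 and cdKO overload replicate 2 lay nearest to the sham libraries on the first principal component, and control overload replicates 2 and 3 had the lowest summed Y-linked level, at 64.9 and 68.9 CPM against 118 to 270.4 CPM in the other 10 libraries.

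Of the 44 collagen genes, 27 had enough counts to be tested among 8161 genes in all: 8 of 11 fibrillar, 5 of 6 basement membrane, 4 of 9 FACIT, 4 of 6 beaded, 2 of 3 short chain, 2 of 2 multiplexin and 2 of 4 transmembrane genes. The other 17 were at or near the detection limit, with 2 to 64 counts in total over 12 libraries, a median total of 21, and 0 to 30 counts in a library. Among them were the cartilage collagens Col2a1, Col9a1, Col9a2, Col9a3, Col10a1 and Col11a2, the anchoring fibril gene Col7a1, and the epithelial hemidesmosome gene Col17a1. The rest were Col4a6, Col6a4, Col6a5, Col13a1, Col20a1, Col22a1, Col24a1, Col26a1 and Col28a1. No direction is given for these 17 genes.

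Collagen mRNA took up a larger share of the counts in overloaded muscle than in sham muscle. The 44 genes together made up 8.83%, 8.61% and 8.09% of all counts in the cdKO overload libraries, 7.0%, 8.54% and 6.21% in control overload, 4.31%, 4.19% and 4.40% in cdKO sham, and 3.91%, 3.27% and 3.16% in control sham. The 6 overloaded libraries all lay above the 6 sham libraries. Group means were 8.51 ± 0.380% in cdKO overload against 7.25 ± 1.19% in control overload, and 4.30 ± 0.103% in cdKO sham against 3.45 ± 0.406% in control sham (SD, n = 3). These shares have no p-value, since the genes were grouped with earlier results of these data known.

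The gain lay almost wholly in the fibrillar genes, whose share of all counts was 7.60% in cdKO overload against 6.52% in control overload, and 3.46% in cdKO sham against 2.67% in control sham. Of the collagen counts alone, fibrillar genes held 89.3 ± 1.63% in cdKO overload against 89.8 ± 2.12% in control overload, and 80.5 ± 1.11% in cdKO sham against 77.4 ± 1.31% in control sham. Beaded genes held a smaller part of the collagen counts under overload, at 6.45% in cdKO overload against 5.88% in control overload, and 11.7% in cdKO sham against 13.9% in control sham. Basement membrane genes likewise held 2.07% in cdKO overload against 2.27% in control overload, and 3.86% in cdKO sham against 4.62% in control sham. As shares of all counts, however, basement membrane genes stood at 0.176 ± 0.0496% in cdKO overload against 0.162 ± 0.00454% in control overload, and 0.166 ± 0.0330% in cdKO sham against 0.159 ± 0.0192% in control sham. Beaded genes stood at 0.549 ± 0.0782% in cdKO overload against 0.421 ± 0.101% in control overload, and 0.501 ± 0.0639% in cdKO sham against 0.484 ± 0.101% in control sham. These means differed between loads by less than 1 SD of the replicates in both classes and genotypes, so the mix of collagen counts moved toward the fibrillar class.

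**Figure D1:**
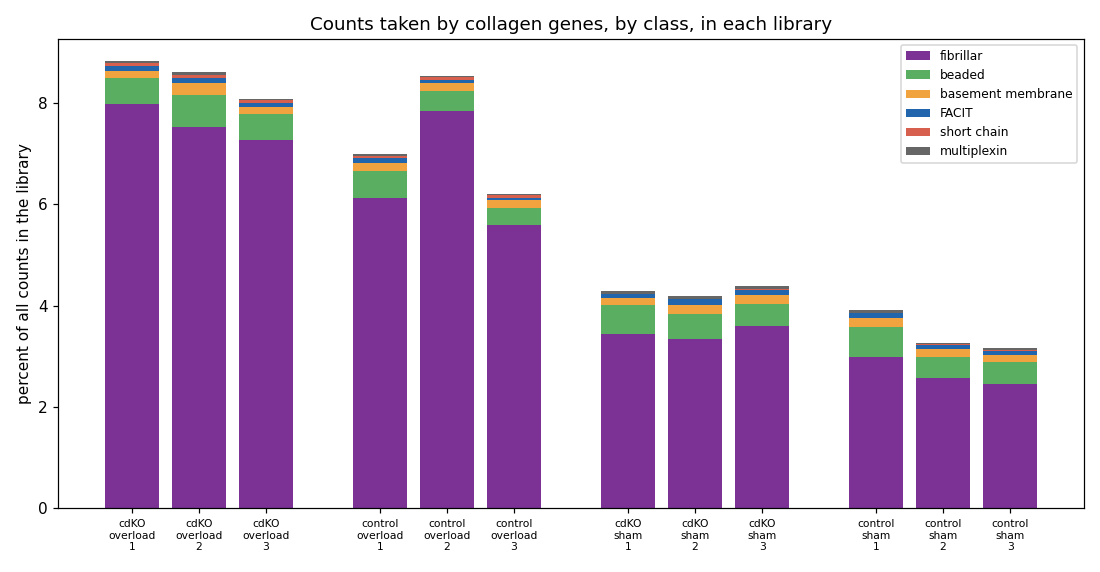
Percent of all counts in each library (vertical axis) taken by collagen genes, stacked by class, for the 3 libraries of each group; anchoring fibril, transmembrane and unclassed genes are too small to draw. The 6 overloaded libraries reach 6.21% to 8.83% and the 6 sham libraries 3.16% to 4.40%, with the fibrillar part making most of the difference.

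Overload changed 7 of the 27 tested collagens in cdKO FAPs (25.9%, against 13.0% of all tested genes), of which 5 rose (6.37% of all genes rose) and 2 fell (6.68% of all genes fell). In control FAPs it changed 8 of 27 (29.6%, against 21.7% of all tested genes), of which 5 rose (10.6% of all genes) and 3 fell (11.0%). A gene was called at a Benjamini-Hochberg adjusted p under 0.05 in edgeR's quasi-likelihood test on all 12 libraries. The genes that rose were Col1a1, Col3a1, Col5a2, Col12a1 and Col8a1 in both genotypes. The genes that fell were Col4a4 and Col6a6 in both genotypes and Col14a1 in control. Without control overload replicate 1 the count in control was 13 of 28 tested collagens, with 5 higher and 8 lower. In that setting 2508 of all 9103 tested genes were called. The lowest control count came without control overload replicates 2 and 3 together, a setting chosen after the data were seen. It leaves a lone library, so its count is not set beside the others. By position alone, overloaded libraries lay wholly above sham libraries for 9 of the 27 collagens in cdKO (15.4% of all tested genes) and 10 in control (18.0%), and wholly below for 4 in cdKO (14.7%) and 6 in control (18.9%).

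The sequences before the starts of 4 called genes are shown because they rose or fell together across both genotypes (RefSeq, GRCm38.p6). Each runs from 5′ to 3′ on the gene's strand and ends at the base before the start. The Col6a6 stretch is cut to the bases outside annotated exons and the Col4a4 stretch to the bases between Col4a4 and Col4a3. Capitals mark CATTCC, the reverse complement of the TEAD core GGAATG, and TATAAA, both in Col3a1. TEAD factors are the DNA-binding partners of YAP and TAZ.
Col3a1 (chr1:45311288-45311537, plus strand, rose): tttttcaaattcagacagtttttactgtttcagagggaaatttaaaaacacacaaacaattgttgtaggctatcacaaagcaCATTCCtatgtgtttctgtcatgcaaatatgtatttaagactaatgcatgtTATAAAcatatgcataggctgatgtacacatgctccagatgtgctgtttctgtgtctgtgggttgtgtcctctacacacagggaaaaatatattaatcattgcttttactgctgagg
Col8a1 (chr16:57754738-57754987, minus strand, rose): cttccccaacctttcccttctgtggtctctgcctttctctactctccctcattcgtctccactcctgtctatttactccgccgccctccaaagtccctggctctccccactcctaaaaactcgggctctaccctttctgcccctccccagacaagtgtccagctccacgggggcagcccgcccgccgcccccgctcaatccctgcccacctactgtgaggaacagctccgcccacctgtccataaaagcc
Col6a6 (chr9:105828161-105828335, minus strand, fell): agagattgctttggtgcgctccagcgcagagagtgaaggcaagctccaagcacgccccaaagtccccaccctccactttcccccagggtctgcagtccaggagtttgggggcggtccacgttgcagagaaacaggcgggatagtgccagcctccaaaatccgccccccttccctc
Col4a4 (chr1:82586850-82586920, minus strand, fell): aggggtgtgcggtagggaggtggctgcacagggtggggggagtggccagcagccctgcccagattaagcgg

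In the 250 bases before the start, the TEAD core (GGAATG or CATTCC) was found in 4 of 38 collagen windows (10.5%) and in 12.6% of all 32851 windows. The 38 windows belong to 35 of the 44 genes, and Col1a1, Col5a2, Col12a1 and Col14a1 are among the genes without an entry. The CCAAT box (CCAAT or ATTGG) was found in 13 of 38 windows (34.2%, against 33.8% of all), and the TATA box (TATAAA or TTTATA) in 5 of 38 (13.2%, against 12.4% of all). In Col3a1 CATTCC begins 168 bases and TATAAA 117 bases before the start. The Col8a1, Col6a6 and Col4a4 windows hold none of these letters, which says nothing of other windows or of the factors.

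Of the 5 collagens that rose, 3 were fibrillar. Col3a1 (chromosome 1, 45311538 to 45349706, plus strand, GRCm38), whose product forms fibrils together with type I collagen in distensible tissue, had 49329.9, 41018 and 43869 CPM in cdKO overload, 34233, 46393 and 30573 in control overload, 16667, 14561 and 19882 in cdKO sham, and 14269, 11961 and 12191 in control sham. Every overloaded library lay above every sham library, and the lowest overloaded value, in control overload replicate 3, was still above the highest sham value. On the log2 scale Col3a1 rose by 1.39 ± 0.27 (adjusted p = 0.00142) in cdKO overload against cdKO sham and by 1.53 ± 0.27 (adjusted p = 0.000281) in control overload against control sham.

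Col1a1 (chromosome 11, 94936224 to 94953042, plus strand), encoding the alpha-1 chain of type I collagen, the main fibril collagen of tendon, bone and muscle connective tissue, had 11836, 13650.0 and 11219 CPM in cdKO overload, 8196, 12716 and 9463 in control overload, 6119, 5423 and 4767 in cdKO sham, and 3916, 3937 and 3424 in control sham. Again no overloaded library overlapped a sham library. Col1a1 rose 2.25-fold in cdKO FAPs (log2 fold change 1.17 ± 0.26, adjusted p = 0.00422) and 2.69-fold in control FAPs (1.43 ± 0.26, adjusted p = 0.00038). Its partner Col1a2, encoding the alpha-2 chain, stood at 20273 ± 625 CPM in cdKO overload against 15793 ± 1662 in control overload, and 13151 ± 802 in cdKO sham against 10079 ± 572 in control sham (SD, n = 3). The overloaded Col1a2 values also lay above the sham values within each genotype, but the change did not pass, at 0.62 ± 0.25 (adjusted p = 0.0991) in cdKO and 0.65 ± 0.25 (adjusted p = 0.0647) in control.

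Type V collagen starts fibrils and limits their thickness. Col5a2 (chromosome 1, 45374321 to 45503282, minus strand), its alpha-2 chain gene, had 1441, 1285 and 1292 CPM in cdKO overload, 1223, 1960.2 and 1374 in control overload, 491, 592 and 694 in cdKO sham, and 522, 425 and 467 in control sham. It rose 2.26-fold in cdKO (1.18 ± 0.25, adjusted p = 0.00278) and 3.23-fold in control (1.69 ± 0.25, adjusted p = 3.84e-05). Col5a1, the alpha-1 chain gene, averaged 1409 ± 119 CPM in cdKO overload against 1400.5 ± 257 in control overload, and 937 ± 90.8 in cdKO sham against 907 ± 66.3 in control sham, and its change did not pass in either genotype (adjusted p = 0.102 in cdKO and 0.0599 in control). Col5a3, the gene of a further chain, averaged 129 ± 18.3 CPM in cdKO overload against 183 ± 25.6 in control overload, and 172 ± 56.3 in cdKO sham against 126 ± 11.6 in control sham. Its fitted change was -0.41 ± 0.25 (adjusted p = 0.309) in cdKO and 0.55 ± 0.25 (adjusted p = 0.123) in control, so neither passed, although the signs differed.

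The remaining fibrillar genes had fewer counts. Col27a1, a fibrillar collagen best known from cartilage, averaged 158 ± 18 CPM in cdKO overload against 102 ± 20.6 in control overload, and 113 ± 28.9 in cdKO sham against 63.9 ± 11.2 in control sham, and Col11a1, which starts fibrils in cartilage, averaged 15.8 ± 4.93 CPM in cdKO overload against 13.7 ± 12.9 in control overload, and 22.7 ± 14.4 in cdKO sham against 17.6 ± 10.6 in control sham. Neither passed in either genotype (adjusted p for Col27a1 0.193 in cdKO and 0.0767 in control, and for Col11a1 0.726 in cdKO and 0.72 in control). Over the 8 tested fibrillar genes, 3 rose and 5 did not pass in each genotype, with a median log2 change of 0.61 in cdKO and 0.66 in control. Over all tested genes the medians were -0.02 in cdKO and -0.05 in control, and 6.37% rose in cdKO and 10.6% in control. The overloaded libraries lay wholly above the sham libraries for 6 of these 8 genes in cdKO (15.4% of all tested genes) and 7 in control (18.0%).

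**Figure D2:**
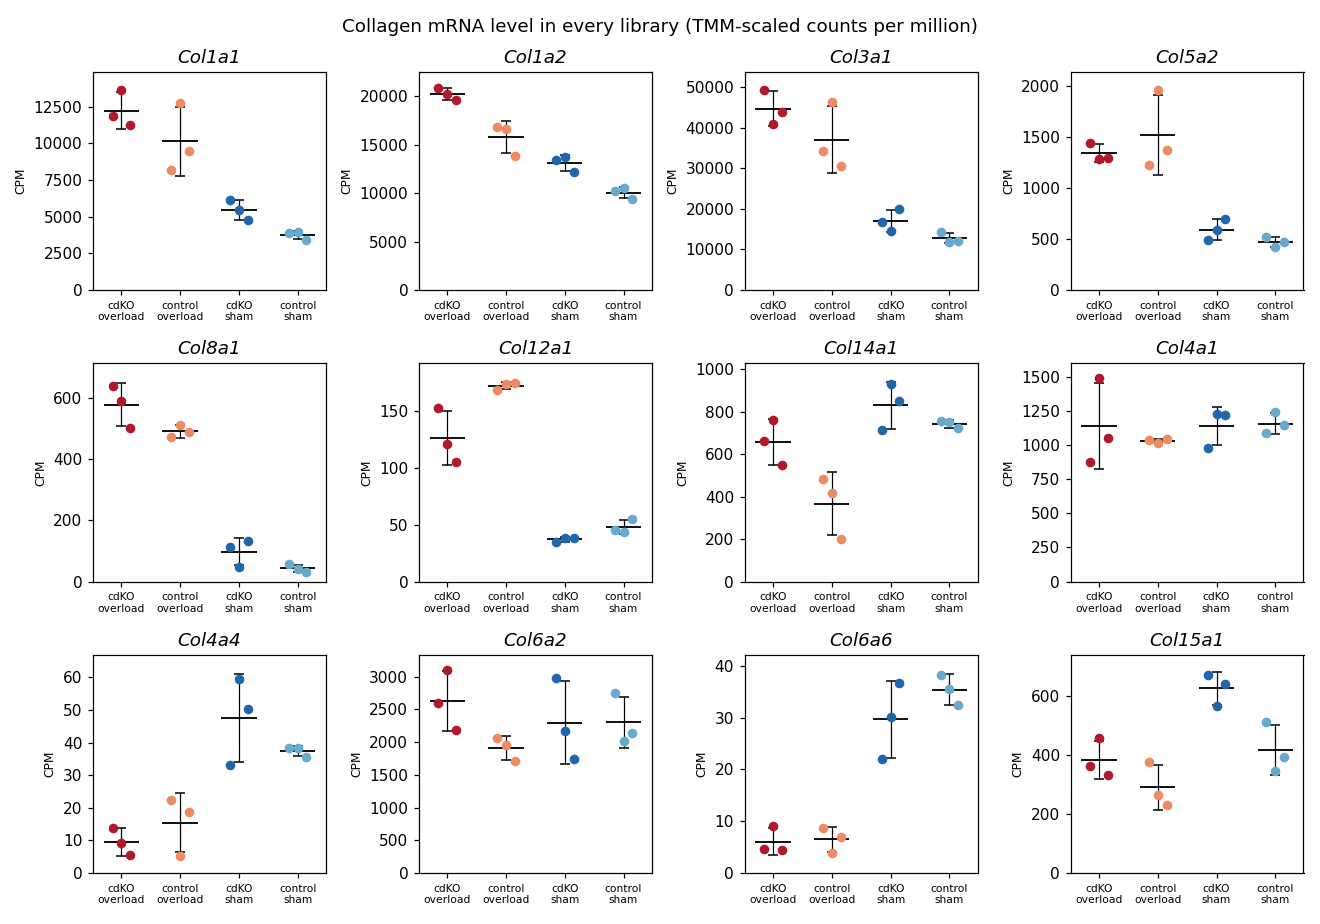
Level of 12 collagen genes in every library, in TMM-scaled CPM (vertical axes start at 0), with the mean (line) and SD (bar) of the 3 libraries of each group. Col1a1, Col3a1, Col5a2, Col8a1 and Col12a1 are higher in all overloaded libraries than in all sham libraries, Col4a4 and Col6a6 are lower, and Col4a1 and Col6a2 show no such separation over both genotypes.

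FACIT collagens moved in opposite directions. Col12a1 (chromosome 9, 79598991 to 79718831, minus strand), whose product bridges fibrils in tendon, ligament and muscle fascia, had 153, 121 and 106 CPM in cdKO overload, 169, 174 and 175 in control overload, 34.8, 38.5 and 38.7 in cdKO sham, and 45, 43.7 and 55.1 in control sham. It rose 3.36-fold in cdKO (1.75 ± 0.25, adjusted p = 6.67e-05) and 3.65-fold in control (1.87 ± 0.25, adjusted p = 1.07e-05), with no overlap between loads. Col14a1 (chromosome 15, 55307750 to 55520803, plus strand), whose product binds fibril surfaces and regulates fibril growth, had 661, 762 and 547 CPM in cdKO overload, 482, 418 and 199.6 in control overload, 711, 931 and 849 in cdKO sham, and 757, 749 and 722 in control sham. It fell in control FAPs, by a log2 change of -1.02 ± 0.28 (adjusted p = 0.00945), and all control overload libraries lay below all control sham libraries. In cdKO FAPs the ranges overlapped and the change of -0.34 ± 0.27 (adjusted p = 0.456) did not pass. The fall in control did not pass without control overload replicate 3, the lowest library (-0.70, adjusted p = 0.0868).

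The other FACIT genes did not pass. Col16a1, which is found near fibrils and at basement membranes, averaged 167 ± 18.6 CPM in cdKO overload against 125 ± 21.9 in control overload, and 137 ± 32.1 in cdKO sham against 79.9 ± 17.9 in control sham, with a change of 0.28 ± 0.24 (adjusted p = 0.504) in cdKO and 0.61 ± 0.26 (adjusted p = 0.0919) in control. Col19a1, a rare basement membrane zone collagen, had no count in 3 of 12 libraries and averaged 8.38 ± 6.13 CPM in cdKO overload against 2.87 ± 4.97 in control overload, and 5.12 ± 7.34 in cdKO sham against 16.6 ± 8.89 in control sham, with 0.85 ± 1.17 (adjusted p = 0.7) in cdKO and -2.87 ± 1.23 (adjusted p = 0.096) in control. Of the 4 tested FACIT genes, 1 rose and 3 did not pass in cdKO, and 1 rose, 1 fell and 2 did not pass in control. Over all tested genes 6.37% rose and 6.68% fell in cdKO, and 10.6% rose and 11.0% fell in control.

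The largest change among the collagens that passed was in the short chain class. Col8a1 (chromosome 16, 57624258 to 57754737, minus strand), encoding a network-forming chain found around vessels and in the cornea, had 639.6, 590.3 and 501 CPM in cdKO overload, 472, 512 and 487 in control overload, 112, 48.9 and 131 in cdKO sham, and 56.3, 39.6 and 32.4 in control sham. The lowest overloaded library stood far above the highest sham library in both genotypes. Col8a1 was 6.05-fold higher in overloaded cdKO muscle (2.60 ± 0.29, adjusted p = 2.89e-06) and 11.3-fold higher in overloaded control muscle (3.50 ± 0.32, adjusted p = 7.26e-08). Its partner gene Col8a2 averaged 13.8 ± 7.48 CPM in cdKO overload against 9.65 ± 8.19 in control overload, and 16.3 ± 2.16 in cdKO sham against 12.1 ± 11.3 in control sham and did not pass, at -0.29 ± 0.61 (adjusted p = 0.822) in cdKO and -0.47 ± 0.68 (adjusted p = 0.655) in control.

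Type VI collagen, the beaded class, surrounds muscle fibres and FAPs, and mutations in its main chain genes cause congenital muscular dystrophy in humans. Col6a2 (chromosome 10, 76595762 to 76623630, minus strand), the class member with the most counts, had 2591, 3102 and 2191 CPM in cdKO overload, 2059, 1959 and 1710.2 in control overload, 2986, 2167 and 1739.6 in cdKO sham, and 2749.7, 2023 and 2145 in control sham. The ranges overlapped in both genotypes, and its change was 0.19 ± 0.26 (adjusted p = 0.692) in cdKO and -0.27 ± 0.26 (adjusted p = 0.481) in control. Col6a1 averaged 2041 ± 284 CPM in cdKO overload against 1573 ± 674 in control overload, and 2258 ± 256 in cdKO sham against 2169 ± 371 in control sham, and Col6a3 averaged 1115 ± 40.8 CPM in cdKO overload against 779 ± 188 in control overload, and 834 ± 159.6 in cdKO sham against 585 ± 96.3 in control sham. Neither passed in either genotype, with adjusted p-values of 0.799 and 0.287 in cdKO and 0.242 and 0.248 in control.

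Col6a6 (chromosome 9, 105687809 to 105828160, minus strand), a long chain gene that can take the place of Col6a3 in the type VI trimer, went the other way. It had 4.63, 9.10 and 4.49 CPM in cdKO overload, 8.61, 3.89 and 7.0 in control overload, 22, 30.2 and 36.7 in cdKO sham, and 38.3, 35.5 and 32.4 in control sham. It fell to 0.210 times the sham level in cdKO (-2.25 ± 0.45, adjusted p = 0.00167) and to 0.172 times in control (-2.54 ± 0.45, adjusted p = 0.000239), with no overlap between loads. The overloaded libraries held 3 to 7 counts each in cdKO and 5 to 6 in control, so the size of the fall is set by few counts.

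Basement membrane collagens split between a pair with many counts that did not pass and a gene with few counts that fell. Col4a1 (chromosome 8, 11198423 to 11312826, minus strand), which with Col4a2 encodes the type IV collagen of nearly all basement membranes, had 879, 1489.9 and 1053 CPM in cdKO overload, 1035, 1018 and 1041 in control overload, 981, 1225 and 1219.7 in cdKO sham, and 1088, 1240.0 and 1147 in control sham. In control the overloaded libraries lay wholly below the sham libraries, as for 18.9% of all tested genes, whereas the cdKO ranges overlapped. The change in Col4a1 was -0.0017 ± 0.24 (adjusted p = 0.998) in cdKO, with a 95% interval of -0.50 to 0.50. It was -0.17 ± 0.24 (adjusted p = 0.66) in control, with an interval of -0.67 to 0.34. Col4a2 averaged 683 ± 180.0 CPM in cdKO overload against 582 ± 29.3 in control overload, and 569 ± 170.5 in cdKO sham against 450.0 ± 179.9 in control sham and did not pass either (adjusted p = 0.611 in cdKO and 0.386 in control).

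Col4a4 (chromosome 1, 82448423 to 82586849, minus strand), a chain gene of the kidney glomerular and inner ear membranes that is mutated in Alport syndrome, had 13.9, 9.10 and 5.61 CPM in cdKO overload, 22.4, 5.19 and 18.7 in control overload, 33, 59.3 and 50.3 in cdKO sham, and 38.3, 38.3 and 35.6 in control sham. All overloaded libraries lay below all sham libraries. Col4a4 fell by a log2 change of -2.36 ± 0.45 (adjusted p = 0.00115) in cdKO and -1.43 ± 0.44 (adjusted p = 0.022) in control. In control this call did not pass without control overload replicate 2 (-0.85, adjusted p = 0.206), control sham replicate 1 (adjusted p = 0.0613) or control sham replicate 2 (adjusted p = 0.0814). Col4a3, its head-to-head neighbour and trimer partner, averaged 8.23 ± 0.759 CPM in cdKO overload against 6.99 ± 7.42 in control overload, and 15 ± 7.94 in cdKO sham against 23.8 ± 13.6 in control sham, and Col4a5, which completes that trimer, averaged 12.2 ± 5.24 CPM in cdKO overload against 2.29 ± 2.27 in control overload, and 17.4 ± 7.60 in cdKO sham against 10.5 ± 8.72 in control sham. Counts per library were 3 to 14 for Col4a3 and 0 to 25 for Col4a5, and neither gene passed. Col4a3 had a fitted change of -0.85 ± 0.67 (adjusted p = 0.45) in cdKO and -1.90 ± 0.70 (adjusted p = 0.0518) in control, and Col4a5 one of -0.56 ± 0.63 (adjusted p = 0.623) in cdKO and -1.99 ± 0.78 (adjusted p = 0.0699) in control.

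Neither multiplexin passed. Col15a1 (chromosome 4, 47208161 to 47313167, plus strand), which anchors basement membranes to fibrils in muscle and vessels, had 363, 458 and 332 CPM in cdKO overload, 377, 265 and 230.0 in control overload, 673, 565 and 642 in cdKO sham, and 511, 347 and 395 in control sham. In cdKO the overloaded libraries lay wholly below the sham libraries, at -0.70 ± 0.25 (adjusted p = 0.0609), while in control the ranges overlapped, at -0.53 ± 0.25 (adjusted p = 0.136). Without control overload replicate 1 the fall in Col15a1 passed in both genotypes, at -0.71 (adjusted p = 0.0378) in cdKO and -0.70 (adjusted p = 0.0497) in control. It also passed in both without control overload replicate 1 and cdKO overload replicate 2 together (adjusted p = 0.0168 in cdKO and 0.0270 in control). In cdKO alone it passed with DESeq2 (adjusted p = 0.0356), on counts thinned to the smallest library (0.0487) and without cdKO overload replicate 2 (0.0485). Col18a1, the precursor of endostatin, averaged 30.2 ± 4.04 CPM in cdKO overload against 20.1 ± 6.58 in control overload, and 35.8 ± 7.65 in cdKO sham against 26 ± 5.01 in control sham (adjusted p = 0.679 in cdKO and 0.436 in control). The transmembrane genes had few counts. Col25a1 (chromosome 3, 130131501 to 130599877, plus strand), which motor axons need to innervate muscle in mice, had 9.27, 11.7 and 4.49 CPM in cdKO overload, 13.8, 1.30 and 14 in control overload, 1.83, 4.16 and 25.1 in cdKO sham, and 22.5, 17.8 and 25.9 in control sham, with changes of -0.20 ± 0.82 (adjusted p = 0.914) in cdKO and -1.29 ± 0.77 (adjusted p = 0.24) in control. Col23a1 averaged 5.41 ± 3.26 CPM in cdKO overload against 2.93 ± 2.0 in control overload, and 19.5 ± 10.9 in cdKO sham against 10.6 ± 7.72 in control sham and did not pass (adjusted p = 0.11 in cdKO and 0.145 in control).

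**Figure D3:**
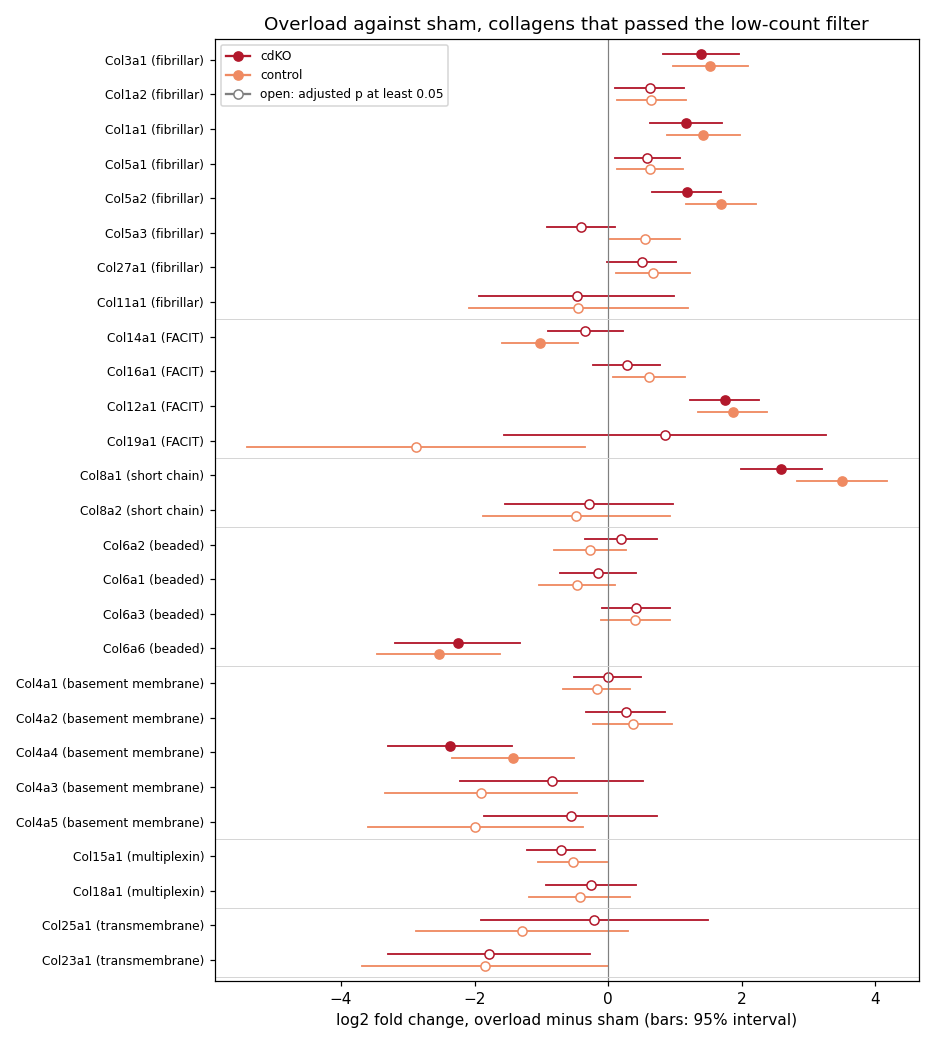
Log2 fold change of overloaded over sham muscle (horizontal axis) for the 27 tested collagens by class, in cdKO (upper point of each pair) and control (lower point), with 95% intervals; filled points passed at adjusted p under 0.05. Col8a1 shows the highest values, at 2.60 in cdKO and 3.50 in control, and the filled points on the left are Col4a4 and Col6a6 in both genotypes and Col14a1 in control.

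The overload comparisons of the genotypes share no library, so they can be set side by side. They do share the fit, with its count filter, scaling and estimate of the spread of each gene. Their call lists are therefore not independent. All 7 collagens called in cdKO were also called in control in the same direction, which is 100% of the cdKO list and 87.5% of the control list. Over all tested genes, 788 were called in both, which is 74.0% of the cdKO list and 44.6% of the control list. The sign of the change was the same in both genotypes for 24 of 27 collagens (88.9%) and for 76.8% of all tested genes. The collagens were not matched to other genes on abundance.

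Genes that make, fold and crosslink collagen chains moved in the same comparisons. Of 20 tested genes for chain modification and folding, 9 rose and 1 fell in cdKO, and 10 rose and 1 fell in control. Over all tested genes, 6.37% rose and 6.68% fell in cdKO, and 10.6% rose and 11.0% fell in control. Among them were Plod2, a lysyl hydroxylase that prepares crosslinks (1.62 ± 0.25, adjusted p = 0.000173 in cdKO, and 1.70 ± 0.26, adjusted p = 4.11e-05 in control), and P3h1, a prolyl hydroxylase (1.33 ± 0.28, adjusted p = 0.00255 in cdKO, and 2.40 ± 0.31, adjusted p = 5.48e-06 in control). The gene that fell was Colgalt2, a collagen galactosyltransferase, in both genotypes (-2.18 ± 0.34 in cdKO, adjusted p = 0.000195, and -1.69 ± 0.34 in control, adjusted p = 0.00101). Of 8 tested genes for propeptide processing and crosslinking, 2 rose and 1 fell in each genotype: Lox, the lysyl oxidase (3.90 ± 0.33, adjusted p = 3.26e-08 in cdKO, and 4.09 ± 0.33, adjusted p = 1.14e-08 in control), and Loxl2 rose, and Pcolce2, an enhancer of procollagen cleavage, fell (-0.73 ± 0.24 in cdKO, adjusted p = 0.0420, and -2.16 ± 0.24 in control, adjusted p = 9.39e-07). The median log2 change was 0.78 in cdKO and 0.85 in control for the folding list, and 0.44 in cdKO and 0.35 in control for the crosslinking list.

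Partners outside the chain-making machinery moved in both directions. The shares over all tested genes to set beside these counts are again 6.37% higher and 6.68% lower in cdKO, and 10.6% higher and 11.0% lower in control, so a single called gene is no result about its list. Of 12 tested fibril-associated genes, 3 rose and 5 fell in cdKO, and 3 rose and 6 fell in control. Those that rose were Cthrc1, Bgn and Sparc, and the falls included the fibril-spacing proteoglycan gene Dcn (-1.49 ± 0.29, adjusted p = 0.00154 in cdKO, and -2.32 ± 0.30, adjusted p = 7.42e-06 in control) and Prelp (-1.50 ± 0.30, adjusted p = 0.00143 in cdKO, and -2.03 ± 0.30, adjusted p = 3.32e-05 in control). Ogn, Dpt and Tnxb also fell in both genotypes. Of 9 tested basement membrane partners, 5 fell in cdKO, and 1 rose (Pxdn, a type IV collagen crosslinking enzyme) and 5 fell in control. Sparcl1, Nid1 and the laminin chain genes Lama2 and Lamb1 fell in both genotypes, Lama4 in cdKO and Lamb2 in control. Nid1 is the type IV collagen linker gene (-1.10 ± 0.26, adjusted p = 0.00713 in cdKO, and -1.31 ± 0.27, adjusted p = 0.000963 in control). Of 9 tested degradation genes, 1 rose and 3 fell in cdKO, and 1 rose and 5 fell in control: the protease inhibitor gene Timp1 rose in both genotypes, Timp2, Timp3 and the gelatinase gene Mmp2 fell in both, and Fap and Ctsk fell in control. Of 5 tested collagen receptors, Itga11 fell in both genotypes (-1.98 ± 0.38 in cdKO, adjusted p = 0.00119, and -2.62 ± 0.41 in control, adjusted p = 6.85e-05) and the other 4 did not pass.

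Most FAP markers fell with load, and the tenocyte marker Thbs4 rose. The summed level of 9 FAP markers was 17494 to 29008 CPM in cdKO overload against 11091 to 18580 in control overload, and 62033 to 65440.5 in cdKO sham against 57675 to 77882 in control sham. Most of that sum was Gsn and Dcn, at 38538 and 26249 of 69080 CPM on average in control sham. Of the 9 markers, 6 fell in cdKO (6.68% of all tested genes fell) and 7 in control (11.0%). Ly6a, Cd34 and Dpp4 did not pass in cdKO, nor Ly6a and Pdgfra in control. Ly6a averaged 2357 CPM in cdKO overload against 1773 in control overload, and 2104 in cdKO sham against 2357 in control sham. In such sorted pools, fewer cells of a type and less RNA per cell cannot be told apart. The summed level of 6 tenocyte markers was 3714 to 4036 CPM in cdKO overload against 2362 to 5117 in control overload, and 209 to 480.3 in cdKO sham against 107 to 381 in control sham. Nearly all of the overloaded sum was Thbs4, at 3834 of 3894 CPM on average in cdKO overload and 3579 of 3625 in control overload. Of these 6 markers 3 had enough counts to be tested, and Thbs4 was the 1 that rose, in both genotypes. Over all tested genes 6.37% rose in cdKO and 10.6% in control. Thbs4 averaged 3834 CPM in cdKO overload against 3579 in control overload, and 321 in cdKO sham against 164 in control sham. The tendon transcription factor gene Scx was low but higher under load without overlap, at 10.8 to 19.1 CPM in cdKO overload against 3.12 to 5.80 in cdKO sham, and 7.79 to 12.8 in control overload against 0 to 4.50 in control sham. Such a lack of overlap, with overloaded libraries higher, was seen for 15.4% of all tested genes in cdKO and 18.0% in control. The tendon genes Mkx and Tnmd reached at most 11.3 and 8.98 CPM in any library, and their ranges overlapped between loads in both genotypes. Ranges also overlapped for Fmod and Kera. Fmod averaged 19.0 CPM in cdKO overload against 21.1 in cdKO sham, and 18.0 in control overload against 18.8 in control sham. Kera averaged 12.8 CPM in cdKO overload against 8.79 in cdKO sham, and 10.6 in control overload against 13.8 in control sham. The 8 endothelial markers summed to 38.2 to 59.8 CPM in cdKO overload against 18.8 to 99.9 in control overload, and 84.3 to 189 in cdKO sham against 109 to 185 in control sham. Of 5 tested, Tek fell in both genotypes and Tie1 in cdKO. The 8 pericyte and smooth muscle markers summed to 88.7 to 108 CPM in cdKO overload against 82.9 to 164 in control overload, and 139 to 213 in cdKO sham against 153 to 159 in control sham, with no overlap between loads in cdKO. Of 5 tested, Pdgfrb fell in cdKO. The part of these marker levels in the changes of Col4a4, Col8a1, Col12a1, Col15a1 and the fibrillar genes was not tested.

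No collagen differed between cdKO and control FAPs past the threshold under either load. In overloaded muscle 0 of 27 collagens passed between cdKO and control (0.0368% of all tested genes passed, 0.0123% higher and 0.0245% lower). At an unadjusted p under 0.05 there were 6 collagens (569 of all 8161 tested genes), and DESeq2 called 0. In sham muscle 0 of 27 passed (0.0123% of all tested genes, all lower), with 4 at an unadjusted p under 0.05 (334 of all 8161 tested genes) and 0 by DESeq2. The largest gaps in overloaded muscle by p-value were Col14a1, at 0.84 ± 0.27 (adjusted p = 0.452) with all cdKO libraries above all control libraries, Col4a5, at 2.05 ± 0.75 (adjusted p = 0.581), and Col27a1, at 0.63 ± 0.24 (adjusted p = 0.618). In sham muscle they were Col8a1, at 1.14 ± 0.33 (adjusted p = 0.999), Col27a1, at 0.80 ± 0.27 (adjusted p = 0.999), and Col16a1, at 0.76 ± 0.26 (adjusted p = 0.999).

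The intervals show what size of difference these libraries leave possible. For Col3a1 the 95% interval of the log2 difference between cdKO and control was -0.28 to 0.82 in overloaded muscle and -0.14 to 0.97 in sham muscle. For Col1a1 it was -0.26 to 0.80 in overloaded and -0.0012 to 1.06 in sham muscle, and for Col12a1 it was -0.91 to -0.0015 in overloaded and -0.91 to 0.25 in sham muscle. The class leaders Col4a1, Col6a2, Col8a1 and Col15a1 differed by 0.15 ± 0.24, 0.46 ± 0.26, 0.23 ± 0.27 and 0.41 ± 0.25 in overloaded muscle (adjusted p = 0.967, 0.785, 0.925 and 0.805), and Col3a1 by 0.27 ± 0.27 (adjusted p = 0.917). In sham muscle Col4a1, Col6a2, Col14a1, Col15a1 and Col3a1 differed by -0.02 ± 0.24, -0.01 ± 0.26, 0.16 ± 0.27, 0.59 ± 0.25 and 0.41 ± 0.27 (adjusted p = 0.999 for each), and Col25a1 by -0.07 ± 0.82 in overloaded and -1.15 ± 0.78 in sham muscle (adjusted p = 0.995 and 0.999).

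Most fitted differences were positive, and none passed. They ranged from -0.58 to 2.05 in overloaded muscle (SE up to 1.24) and from -1.78 to 1.14 in sham muscle (SE up to 1.16). The fitted difference between cdKO and control was positive for 22 of 27 collagens in overloaded muscle, with a median of 0.38, against 53.0% of all tested genes and a median of 0.03. In sham muscle it was positive for 20 of 27, with a median of 0.38, against 51.4% of all genes and a median of 0.01. All cdKO libraries lay above all control libraries for 7 of 27 collagens in overloaded muscle (5.38% of all genes) and for 7 in sham muscle (5.44%). They lay below for 2 in overloaded muscle (5.31%) and 1 in sham muscle (4.45%). The collagens were measured in the same libraries, so neither their signs nor these positions are separate observations. The comparisons under the 2 loads share no library, and 4 collagens lay higher under both: Col1a2, Col6a3, Col16a1 and Col27a1 (0.294% of all genes). Col12a1 alone lay lower under both (0.184% of all genes).

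Col1a2 had 20884, 20301 and 19635 CPM in cdKO overload, 16883, 16615 and 13879 in control overload, 13421, 13783 and 12249 in cdKO sham, and 10274, 10528 and 9434 in control sham. In overloaded muscle the lowest cdKO library was above the highest control library, and likewise in sham muscle. Col27a1 had 165, 138 and 172 CPM in cdKO overload, 119, 109 and 79.4 in control overload, 134, 80.2 and 126 in cdKO sham, and 76.6, 60.2 and 55.1 in control sham. The sham gap there is narrow, at 80.2 CPM for the lowest cdKO library against 76.6 CPM for the highest control library. Col12a1 went the other way, with the values given above: its highest cdKO library was below its lowest control library under each load.

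**Figure D4:**
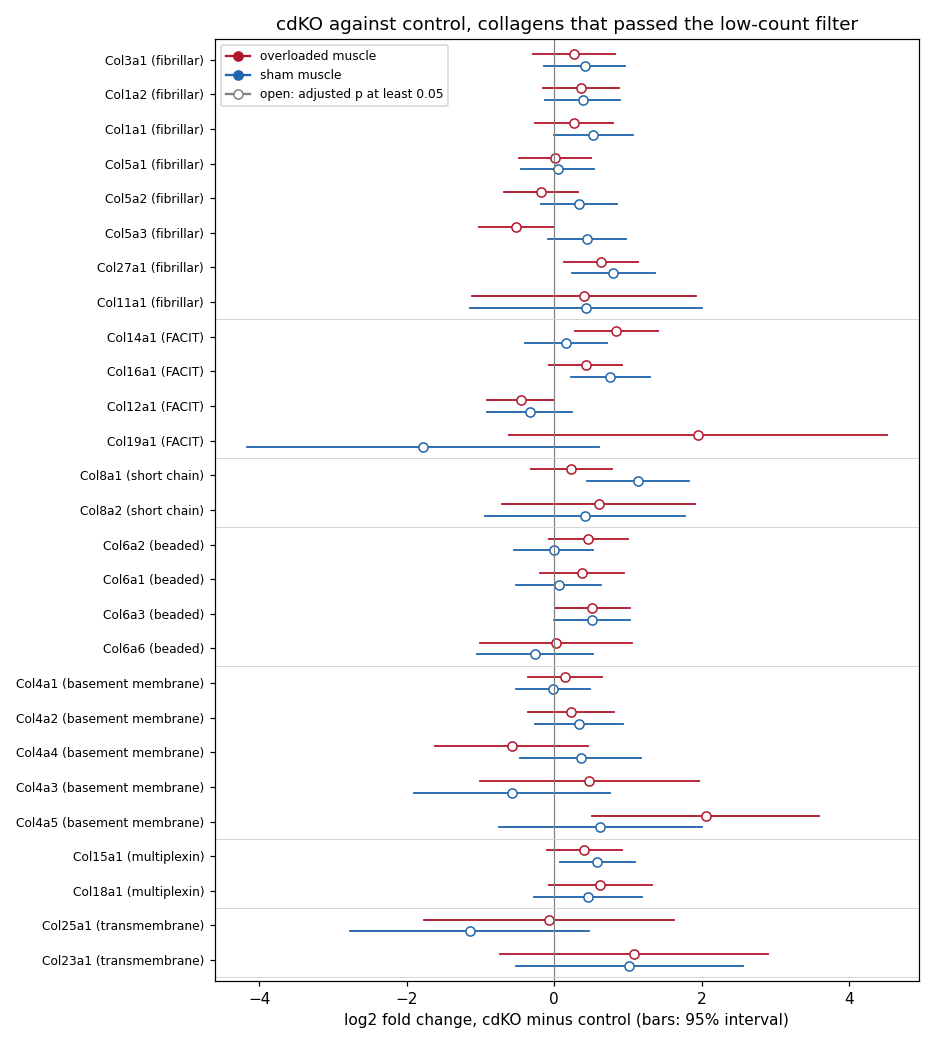
Log2 fold change of cdKO over control (horizontal axis) for the 27 tested collagens by class, in overloaded muscle (upper point of each pair) and sham muscle (lower point), with 95% intervals. All points are open, since none passed at adjusted p under 0.05, and 22 of 27 points in overloaded and 20 of 27 in sham muscle lie right of 0. The genes were measured in the same libraries, so the points are not separate observations.

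The interaction asks whether overload changed a collagen differently in cdKO than in control. No collagen passed (0 of 27, and 0% of all tested genes), with 3 at an unadjusted p under 0.05 (427 of all 8161 tested genes) and 0 by DESeq2. Those 3 were Col5a3, at -0.96 ± 0.36 (adjusted p = 0.884), Col8a1, at -0.90 ± 0.43 (adjusted p = 0.931), and Col19a1, whose fit rests on groups with few counts (adjusted p = 0.927). All 8 tested fibrillar genes had a negative interaction estimate, from -0.96 to -0.02, and all 4 tested beaded genes a positive one, from 0.01 to 0.47. Over all tested genes 51.7% of the interaction estimates were positive, with a median of 0.02. The genes of a class were measured in the same 12 libraries, so their signs are not separate observations. The sign of Col3a1 turned positive without control overload replicate 2, at 0.057. Estimates for the class members with the most counts were -0.14 ± 0.38 (adjusted p = 0.988) for Col3a1, 0.17 ± 0.35 (adjusted p = 0.981) for Col4a1, 0.47 ± 0.37 (adjusted p = 0.951) for Col6a2, 0.68 ± 0.39 (adjusted p = 0.94) for Col14a1, -0.18 ± 0.35 (adjusted p = 0.981) for Col15a1 and 1.08 ± 1.13 (adjusted p = 0.973) for Col25a1. Col14a1 fell past the threshold in control and not in cdKO, and this test of the difference did not pass.

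Of 6 ratios between collagen chain genes, 2 were higher in all overloaded libraries than in all sham libraries. The ratios are within each library, are not corrected for gene length, and are compared only with the same ratio in other libraries. Col1a1 over Col1a2 was 0.604 ± 0.0597 in cdKO overload against 0.644 ± 0.144 in control overload, and 0.413 ± 0.0374 in cdKO sham against 0.373 ± 0.00917 in control sham (SD, n = 3). The lowest overloaded library had 0.485 and the highest sham library 0.456, so the loads did not overlap. Col5a2 over Col5a1 was 0.955 ± 0.101 in cdKO overload against 1.09 ± 0.220 in control overload, and 0.641 ± 0.149 in cdKO sham against 0.524 ± 0.0930 in control sham, again without overlap, at 0.837 for the lowest overloaded and 0.761 for the highest sham library.

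Other ratios overlapped between loads. Col3a1 over Col1a1 was 3.69 ± 0.611 in cdKO overload against 3.69 ± 0.474 in control overload, and 3.19 ± 0.847 in cdKO sham against 3.41 ± 0.328 in control sham. Col4a1 over Col4a2 was 1.68 ± 0.277 in cdKO overload against 1.78 ± 0.0895 in control overload, and 2.10 ± 0.464 in cdKO sham against 2.87 ± 1.10 in control sham, with 1 control sham library at 1.68. Col6a1 over Col6a2 was 0.786 ± 0.127 in cdKO overload against 0.809 ± 0.282 in control overload, and 1.01 ± 0.167 in cdKO sham against 0.941 ± 0.0436 in control sham. Col6a3 over Col6a1 was 0.552 ± 0.0589 in cdKO overload against 0.521 ± 0.0939 in control overload, and 0.378 ± 0.117 in cdKO sham against 0.272 ± 0.0420 in control sham. For Col6a3 over Col6a1 the control overload libraries, from 0.426 to 0.614, lay above the control sham libraries, from 0.232 to 0.316, whereas the cdKO ranges overlapped.

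**Figure D5:**
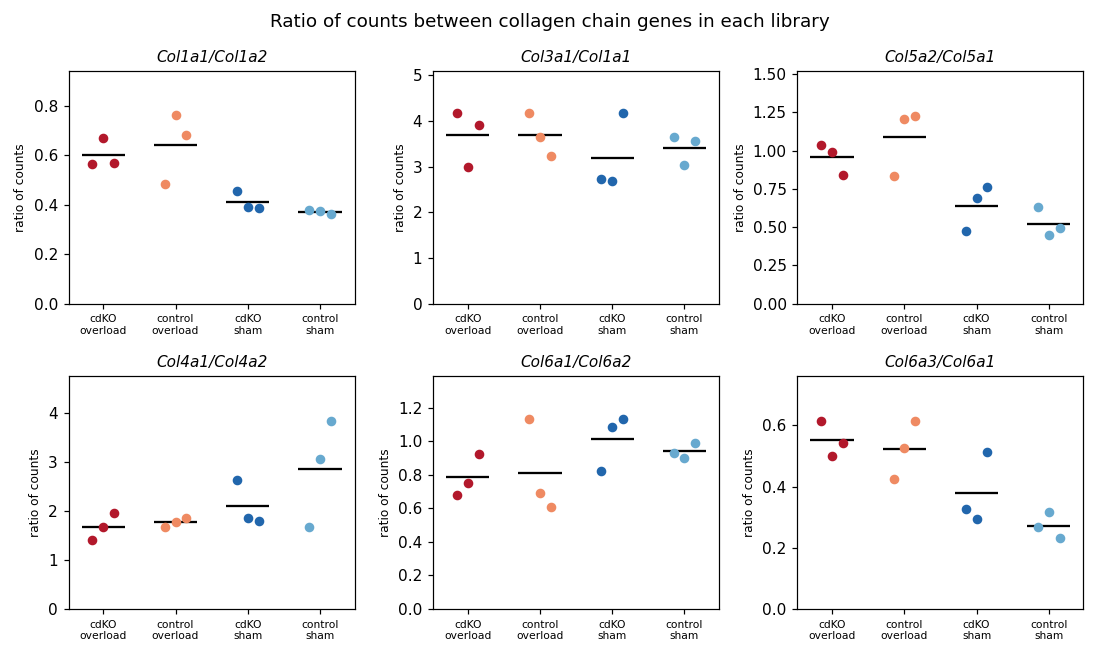
Ratio of counts between collagen chain genes in each library (vertical axes start at 0), with the mean of the 3 libraries of each group as a line. Col1a1/Col1a2 and Col5a2/Col5a1 are higher in all 6 overloaded libraries than in all 6 sham libraries, and the other ratios overlap between loads.

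Several collagens that moved are neighbours in the genome. Col3a1 and Col5a2, which both rose, face each other tail to tail on chromosome 1, 24614 bases apart. Col4a4 and Col4a3 start back to back on chromosome 1 with 71 bases between them, and Col4a1 and Col4a2 start back to back on chromosome 8 with their first exons overlapping by 22 bases. Col4a4 passed and Col4a3, Col4a1 and Col4a2 did not. Col6a6 lies 27917 bases from Col6a5 on chromosome 9, which was under the count filter. The sources used here do not give the strand setting of the authors' counting. Any reads in the 563 exonic bases that Col4a3 shares with the antisense gene C430014B12Rik therefore cannot be told apart. The same holds for the 22 shared bases, but these lie in first exons, while the tags come from the 3′ end.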

How the data were processed

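RNA was measured in 12 libraries of 1000 sorted cells each, built with the published low-input CEL-Seq2 protocol, per the labels' protocols. The authors deposited raw counts per gene, all whole numbers. The submitters' processing notes list build GRCm38 and, as tools, featureCounts 2.0.1, HISAT2 2.2.1, DESeq2 1.26.0 and Trim Galore 0.6.6. The sources used here do not give the annotation release, the strand setting or whether molecular identifiers were used.

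Libraries were grouped by their labels, and no sample column was left out. Collagens were taken by biotype and symbol, and all 44 matched GENCODE M21 by identifier, as did 54100 of 54100 genes. Classes and gene lists were fixed by name. The members and lists were chosen with earlier results of these data known, and nothing here is independent support for those.

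Tests used edgeR 4.0.16 in R 4.3.3: filterByExpr, TMM factors, 1 quasi-likelihood model (robust setting, group means) over all 12 libraries, two-sided tests, and Benjamini-Hochberg adjustment over 8161 genes at 0.05. SE was obtained as |log2 fold change| over the root of the F statistic, and 95% intervals use the model's degrees of freedom. CPM are counts divided by the TMM-scaled sum of tested counts. Shares of counts divide by the whole library total. The fit was also run on simulated counts, and the outcome of that run is not given here. Counting floors of 3 counts cover counting error only.

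Every tested collagen is named with its level. Full statistics are given for those that passed and for the highest-CPM member of each class, and values per library for those leaders and for members that passed in 2 or more comparisons. Other named values were chosen after they were seen. From each list at most 3 genes with the smallest p are named, beside genes named where a count was 5 or fewer. Alternatives were DESeq2 1.42.0, its size factors in edgeR, no count filter, a non-robust fit, thinned counts, a replicate block, only the groups compared, a Y-linked covariate, and libraries left out singly and in pairs. Whether replicate numbers pair libraries is not settled by the correlation of their deviations from the group mean. It was -0.20 to 0.31 between same-numbered libraries (median 0.041, over 0.1 in 7 of 18 pairs). Between other-numbered libraries it was -0.34 to 0.32 (median -0.022, over 0.1 in 6 of 36 pairs). Sequences are from RefSeq, GRCm38.p6.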

Additional observations from a re-analysis of the deposited data

How the results depend on the processing

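Collagen calls under overload kept within 1.5 times of 8 in control in 20 of 23 alternatives (range 4 to 13) and of 7 in cdKO in 23 of 23 (range 7 to 10), and no collagen passed between genotypes or in the interaction in any alternative run. The control count was 13 of 28 tested collagens without control overload replicate 1 and cdKO overload replicate 2 together (2552 of all 8625 tested genes). With DESeq2 it was 11 of 27 (1555 of all 8161). With each library left out in turn it was 7 to 13, highest without control overload replicate 1, and 1060 to 2508 of all tested genes were called. The lowest count came without control overload replicates 2 and 3, a setting chosen after the data were seen. That setting leaves a lone library assumed to vary like the other groups. In cdKO the count was 10 of 27 with DESeq2 (911 of all 8161 tested genes). It was 7 to 9 with each library left out, where 423 to 1287 of all tested genes were called. With a replicate block the counts were 9 in control (8 shared with the fit without it) and 7 in cdKO (7 shared), and 0 in the other 3 comparisons. Of all 8161 tested genes, 1752 were called in control and 1035 in cdKO with that block. Whether the replicate numbers pair libraries is not known. The calls of Col3a1, Col5a2, Col8a1 and Col12a1 held in all 23 alternatives in both genotypes, as did all 7 cdKO calls. In control, Col14a1 did not pass in 5 alternatives, Col4a4 in 8, and Col1a1 and Col6a6 only in the setting with replicates 2 and 3 left out (adjusted p = 0.0895 and 0.127). With the Y-linked share as a covariate the control count was 6 of 27 (5 higher, 1 lower), beside 921 of all 8161 tested genes. Without a count filter it was 6 of 44, beside 1383 of all 37990 tested genes.

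Signs were followed under the alternatives only for collagens that passed and for class leaders. Of these, 35 values reversed, all in comparisons that a class leader did not pass, with adjusted p of at least 0.418. Without replicates in turn, Col4a1 ranged from -0.20 to 0.16 (cdKO overload over sham), -0.093 to 0.27 (genotype, overloaded), -0.087 to 0.075 (genotype, sham) and -0.076 to 0.30 (interaction), Col25a1 from -0.69 to 1.33 (cdKO overload over sham) and -0.73 to 0.42 (genotype, overloaded), Col6a2 from -0.24 to 0.14 (genotype, sham) and Col3a1 from -0.31 to 0.057 (interaction). Col4a1 in cdKO overload over sham was 0.0049 with DESeq2 size factors, 0.0050 with DESeq2, 0.067 without a filter (0.029 for genotype in sham), 0.055 with the Y-linked covariate, 0.026 without control overload 2 and control sham 3, and 0.0056 without control overload 2 and 3. It was 0.034 on thinned counts (genotype, sham), and -0.094 (genotype, overloaded) and -0.077 (interaction) without control overload 1 and cdKO overload 2. Col25a1 with the replicate block was 0.0034 (cdKO overload over sham) and 0.15 (genotype, overloaded). Col6a2 was 0.054 without a filter (genotype, sham), Col8a1 was -0.00066 with the Y-linked covariate (genotype, overloaded), and Col3a1 was 0.099 without control overload 2 and control sham 3 (interaction). The cause was not tested.

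Shares of counts depend on the total used. Over protein-coding nuclear counts all collagens took 9.81% in cdKO overload, 5.15% in cdKO sham and 3.95% in control sham, and fibrillar genes 8.76% in cdKO overload, 4.15% in cdKO sham and 3.06% in control sham. Basement membrane genes took 0.187% in control overload against 0.182% in control sham, and 0.199% in cdKO sham, beaded genes 0.633% in cdKO overload and 0.601% in cdKO sham, FACIT genes 0.106% in cdKO overload, 0.115% in cdKO sham and 0.0981% in control sham, and short chain genes 0.0645% in cdKO overload and 0.0572% in control overload. Over TMM-scaled totals all collagens took 8.99% in cdKO overload and 4.66% in cdKO sham, fibrillar genes 8.03% in cdKO overload and 3.75% in cdKO sham, and FACIT genes 0.0907% in control sham. With each library left out, the share of all collagens was 8.35% to 8.72% in cdKO overload against 6.60% to 7.77% in control overload, and 4.25% to 4.35% in cdKO sham against 3.22% to 3.59% in control sham. Genes with few counts in some or all libraries, such as Col4a3, Col4a5, Col6a6, Col19a1, Col23a1 and Col25a1, are limited by depth.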
